A study of Mus musculus with 2 samples.

Results

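The genes described here encode the subunits of heterotrimeric G proteins and the regulators of G protein signalling (RGS proteins) that act on them. They were taken by name from the gene tables of layer 5 pyramidal neurons, as the protein-coding genes of the Gα, Gβ and Gγ families and the RGS genes numbered without further letters. This gave 51 genes of 43346 gene identifiers, or of 21474 protein-coding genes, with 16 Gα, 4 Gβ, 11 Gγ and 20 RGS genes. A further 3 genes of these families are not reported here, so every family sum or share below is over the members given.

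The data were 2 libraries of a single group, both built from pools of 50 pyramidal neurons that had been cut by laser capture out of cortical layer 5 of wild-type male mice aged 8 months. Per the labels, the mice were of strain B6NCrl in one field and C57Bl5 or C57Bl6 in others, RNA above 200 nt was used, an antibody tag read Control, and libraries followed a Smart-seq protocol with added spike-in RNAs. The labels call the libraries biological replicates 1 and 2 but give both the same donor identifier, so whether separate animals were used is unclear, and their spread may be in part technical. With no second condition, no test between groups was possible, and values are given per library or as mean ± SD (n = 2).

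A heterotrimeric G protein couples a membrane receptor to enzymes and channels inside the cell. The receptor makes Gα exchange GDP for GTP, Gα and the Gβγ pair then act on separate targets, and an RGS protein speeds GTP hydrolysis on Gα and so ends the signal. In cortical neurons these proteins carry the responses to monoamines, acetylcholine, neuropeptides, adenosine, and glutamate and GABA at their metabotropic receptors.

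Depth was 24171434 and 27946180 estimated reads in replicates 1 and 2, of which spike-ins held 4.28% and 5.32%. A floor of 3 reads corresponded to 0.128 and 0.115 CPM (reads scaled to library size) in replicates 1 and 2. Markers of glutamatergic neurons were all present (7 of 7 at TPM of at least 1 in both libraries, sums 619 and 799 TPM), as were those of layer 5 (7 of 7, sums 2345 and 4818 TPM). Most of both layer 5 sums came from Pcp4 alone (2134 and 4468 TPM in replicates 1 and 2). The median over the 7 layer 5 markers was 44.7 and 62.5 TPM in those libraries. TPM is a level per transcript length, scaled to a fixed sum. Markers of other cells were present as well. The interneuron list summed to 3930 TPM in replicate 1 and 1536 TPM in replicate 2, the microglial list to 149 and 57.9 TPM in replicates 1 and 2, and the oligodendrocyte list to 523 TPM in replicate 1 and 673 TPM in replicate 2. The erythroid list summed to 7.59 and 384 TPM in replicates 1 and 2. In pooled cells, fewer cells of a type and less RNA per cell cannot be told apart.

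Some of the results rest on short stretches of sequence, which are shown here from the GENCODE M21 transcripts on GRCm38 (the mm10 build of the tables), 5′ to 3′. The first set shows the coding exon that separates the leading pair of Gnas transcripts. The exon lies at chr2:174336747-174336791 on the plus strand, is 45 bases long, and is in capitals with 15 bases of each flanking exon in lower case. The second line is the junction without it.
Gnas-208: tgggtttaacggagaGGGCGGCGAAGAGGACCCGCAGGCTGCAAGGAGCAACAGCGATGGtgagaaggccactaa
Gnas-206: tgggtttaacggagatgagaaggccactaa

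The second set shows the alternative ends of the Gnao1 coding sequence, 60 bases with the stop codon, because the Gnao1 transcripts in the table divide into these ends. Capitals mark the bases that differ, 14 of 60. The end of Gnao1-201 lies at chr8:93966996-93967055 and that of Gnao1-207 at chr8:93956193-93956252, both on the plus strand.
Gnao1-201: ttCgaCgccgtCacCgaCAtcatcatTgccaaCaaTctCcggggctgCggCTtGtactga
Gnao1-207: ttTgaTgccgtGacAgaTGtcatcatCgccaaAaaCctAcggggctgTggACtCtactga

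The third set shows the coding ends of 6 Gγ genes, 30 bases with the stop codon, with the 4 codons before the stop in capitals. These codons encode the CaaX box, the C-terminal motif on whose cysteine a lipid is placed. A last residue of leucine directs a geranylgeranyl lipid and a last residue of serine a farnesyl lipid. The sequences came from chr19:8838143-8838172 (Gng3, minus strand), chr17:25719003-25719032 (Gng13), chr4:59039323-59039352 (Gng10), chr3:146503356-146503385 (Gng5), chr6:4008131-4008160 (Gng11) and chr11:95845579-95845608 (Gngt2), the last 5 on the plus strand.
Gng3: gagaagaagttcttcTGTGCGCTCCTCtga
Gng13: gtagagaaggccaagTGCACCATCCTAtga
Gng10: cgggagcccaggtccTGTGCTCTACTTtga
Gng5: agaccccagaaagtcTGCTCCTTTTTGtag
Gng11: aaagaaaagggcagcTGTGTCATTTCAtaa
Gngt2: aaggagaaaggcactTGTGTGCTAAGCtga

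Most members were detected. At a TPM of at least 1, 40 members were detected in replicate 1 and 38 in replicate 2, and 38 of 51 (74.5%) were detected in both, against 52.2% of all protein-coding genes. The median level of the members was 13.0 TPM in replicate 1 and 12.9 TPM in replicate 2, against 2.02 and 1.84 TPM for all protein-coding genes in those libraries. Detection in both libraries held for 12 of 16 Gα, 3 of 4 Gβ, 10 of 11 Gγ and 13 of 20 RGS genes. No read was assigned in either library to 6 members: Gnat2 (the cone transducin Gα), Gnat3 (gustducin, the Gα of taste cells), Gnb3 (the Gβ of cone photoreceptors), Gngt1 (the Gγ of rod photoreceptors), Rgs18 (known from platelets) and Rgs21.

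The summed level of the Gα members was 1097 TPM in replicate 1 and 996 TPM in replicate 2 (mean 1046 ± 71.0, SD, n = 2). Gβ members summed to 772 and 949 TPM in replicates 1 and 2 (861 ± 126), and Gγ members to 1501 and 1365 TPM (1433 ± 96.8). RGS members summed to 452 TPM in replicate 1 and 662 TPM in replicate 2 (557 ± 149), the family with the lowest sum in both libraries. By member, the median level was 14.4 and 11.6 TPM for Gα, 94.3 and 128 TPM for Gβ, 19.5 and 20.5 TPM for Gγ, and 7.90 and 6.93 TPM for RGS genes in replicates 1 and 2.

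**Figure D1:**
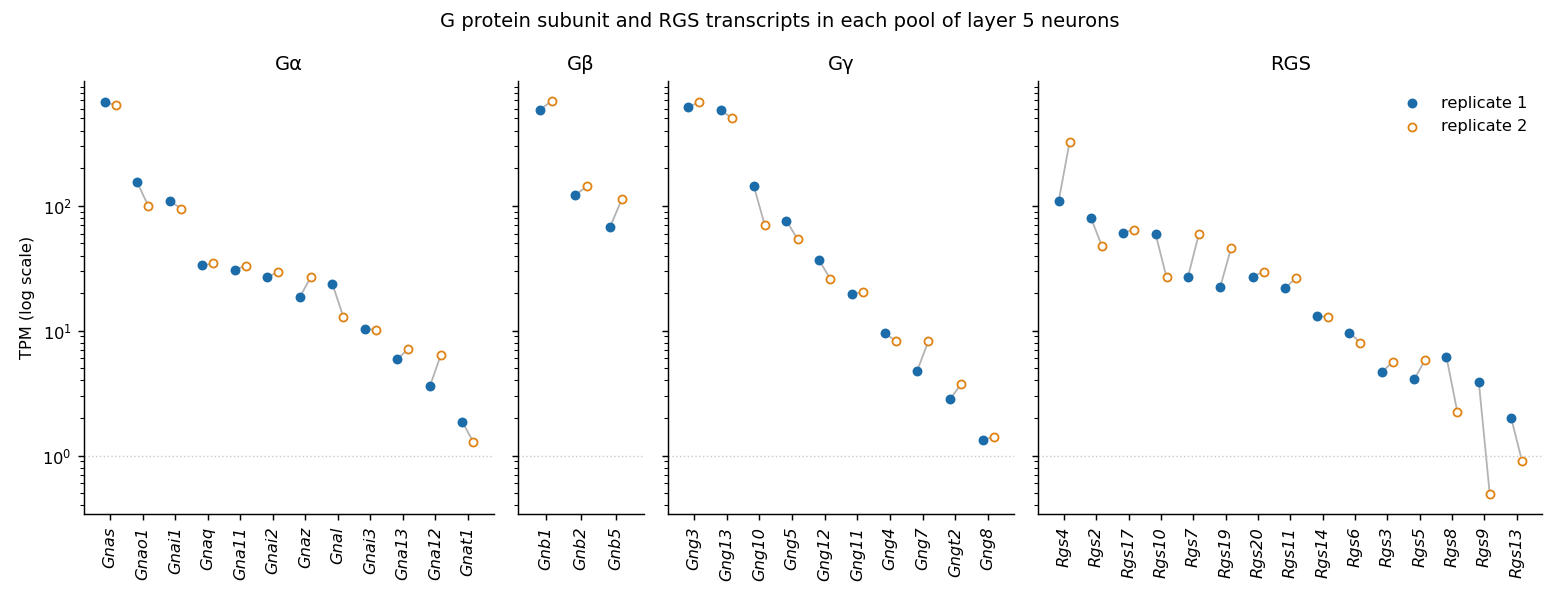
Level of each member at a TPM of at least 1 in at least 1 library, in TPM on a log scale, by family, with replicate 1 as filled points, replicate 2 as open points and a line joining them. Gnas, Gnb1, Gng3 and Gng13 lie above 500 TPM in both libraries, and the lines of Rgs4, Rgs7, Rgs8, Rgs9, Rgs10 and Gng10 are among the steepest.

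Among the Gα genes, Gnas, which encodes the stimulatory Gαs that activates adenylyl cyclase, had the highest level. The gene lies at chr2:174284320-174346744. Gnas levels were 678 and 638 TPM in replicates 1 and 2 (658 ± 27.8), ranking 154 and 172 among protein-coding genes. It held 61.8% and 64.1% of the Gα TPM in replicates 1 and 2. The other gene of the Gs class, Gnal, encodes the Gα of olfactory neurons and striatum. Its level was 23.8 TPM in replicate 1 and 12.9 TPM in replicate 2. The Gs class as a whole thus held 64.0% and 65.4% of the Gα TPM.

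The Gi/o class, in which the transducins and gustducin are counted here, held 29.3% and 26.4% of the Gα TPM in replicates 1 and 2. Its Gi and Go members inhibit adenylyl cyclase and release the Gβγ that opens GIRK potassium channels. Gnao1 (chr8:93809966-93969388), the Go subunit and a major Gα of brain membranes, had 154 and 99.6 TPM in replicates 1 and 2. Gnai1 (chr5:18265135-18360355) had 110 and 95.1 TPM in replicates 1 and 2. Gnao1 (127 ± 38.4) was thus above Gnai1 (103 ± 10.6) in TPM in both libraries, by little in replicate 2. In reads, not per length, Gnai1 was above Gnao1 in replicate 2 (6588 against 6262). With 2 libraries their order was not tested. The related inhibitory genes were lower, with Gnai2 at 26.9 and 29.5 TPM, Gnai3 at 10.3 and 10.2 TPM, and Gnaz, whose product is insensitive to pertussis toxin, at 18.6 and 27.0 TPM in replicates 1 and 2. The rod transducin gene Gnat1 was near the detection minimum at 1.86 and 1.28 TPM, from 26 and 13 reads in replicates 1 and 2. In replicate 1 a processed transcript held 69.4% of its TPM, and its protein-coding transcripts held 0.25 TPM, below that minimum.

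The Gq class, which activates phospholipase C beta, held 5.84% and 6.90% of the Gα TPM in replicates 1 and 2. Gnaq (33.3 and 34.6 TPM) and Gna11 (30.8 and 33.1 TPM) were present at like levels in both libraries, with means of 34.0 ± 0.905 and 31.9 ± 1.63 TPM. The remaining Gq class genes were at or near 0. Gna14 had 0 reads in replicate 1 and 68 reads (0.920 TPM) in replicate 2, at least 20.3-fold higher there if replicate 1 is set to its limit of 3 reads. Gna15, known from blood cells, had 0 and 2 reads in replicates 1 and 2. The G12 class, which acts on RhoGEFs, held 0.865% and 1.37% of the Gα TPM, with Gna13 at 5.90 and 7.20 TPM and Gna12 at 3.59 and 6.43 TPM in replicates 1 and 2. Exons of Gna12 are overlapped over 13.3% of their bases by Amz1 on the opposite strand (288 and 97 reads in replicates 1 and 2). The part of Amz1 in the Gna12 reads was not tested.

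**Figure D2:**
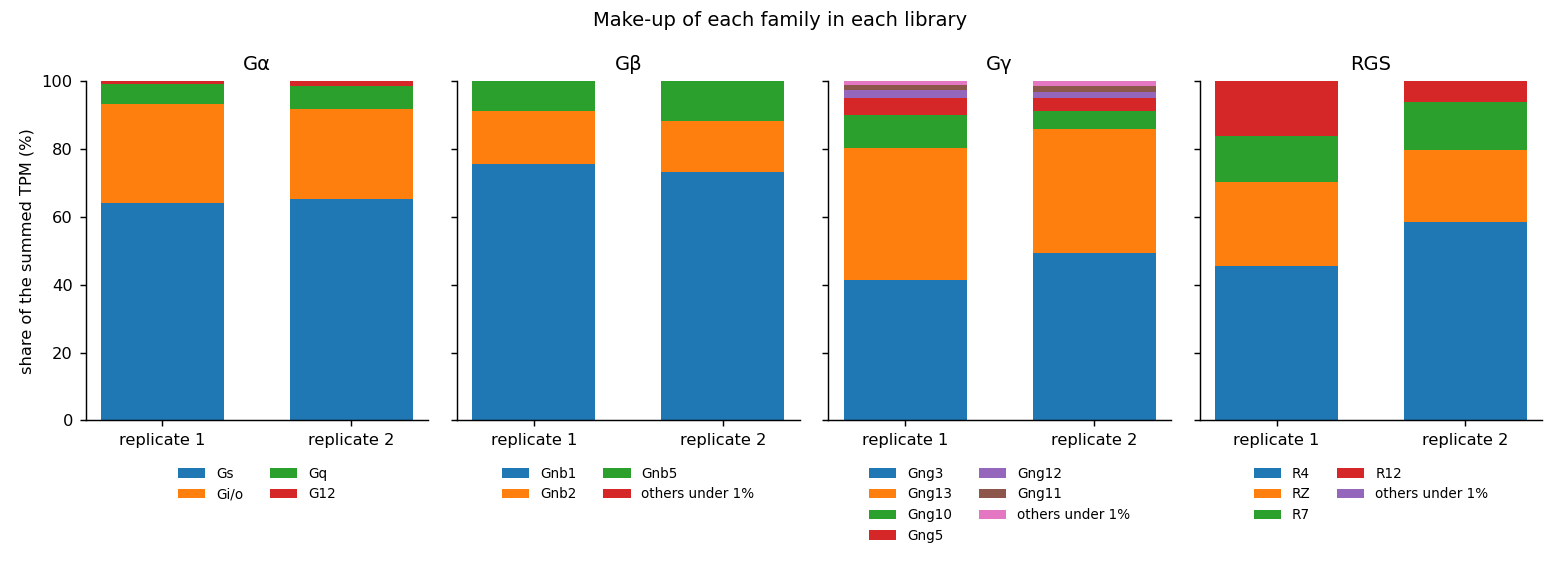
Share of the summed TPM of each family, in percent, held by its classes (Gα, RGS) or members (Gβ, Gγ), with replicate 1 left of replicate 2 in each panel. The make-up of Gα and Gβ differs little between the libraries, while among RGS genes the R12 share is 16.1% in replicate 1 and 5.99% in replicate 2.

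The Gβ genes were led by Gnb1 (chr4:155491361-155559269), with 583 and 694 TPM in replicates 1 and 2 (639 ± 78.2), which held 75.6% and 73.1% of the Gβ TPM. Gnb2 was at 121 and 143 TPM in replicates 1 and 2. In replicate 1, however, retained-intron transcripts held 95.4% of the Gnb2 level and protein-coding ones 5.52 TPM, and over protein-coding transcripts alone Gnb1 held 88.9% of the Gβ TPM. Gnb5, the divergent Gβ that pairs with RGS proteins of the R7 class in place of Gγ, had 67.3 and 113 TPM in replicates 1 and 2.

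Of the Gγ genes, Gng3 (chr19:8836933-8839194), known from neurons, and Gng13 (chr17:25717171-25719406), known from taste, olfactory and retinal cells, led with similar levels. Gng3 had 623 and 672 TPM in replicates 1 and 2 (647 ± 34.4). Gng13 had 583 and 501 TPM in replicates 1 and 2 (542 ± 58.0). Together they were most of the Gγ TPM, with shares of 41.5% and 49.2% for Gng3 and 38.8% and 36.7% for Gng13 in replicates 1 and 2. Exons of Gng3 are overlapped over 24.2% of their bases by Bscl2 on the opposite strand (2261 and 2786 reads in replicates 1 and 2), and those of Gng13 over 51.6% by Chtf18 on the opposite strand (2 and 34 reads). No source used here says whether counting took strand into account, so reads of such partners cannot be told apart.

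The Gng13 model is short. Its level came from 2936 and 2858 reads over an average of 351 and 354 bases in replicates 1 and 2, whereas Gng3 had 19938 and 24062 reads over 1699 bases. Counted in reads and not per length, Gng3 held 72.5% of the Gγ reads (mean of the libraries).

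The widely expressed Gγ genes followed. Gng10 was at 145 and 69.6 TPM, Gng5 at 75.9 and 54.2 TPM, and Gng12 at 36.6 and 26.0 TPM in replicates 1 and 2. Gng11 had 19.5 TPM in replicate 1 and 20.5 TPM in replicate 2. Below 10 TPM were Gng4 (9.59 and 8.29 TPM), Gng7, which is known from striatum (4.80 and 8.23 TPM), the cone gene Gngt2 (2.82 and 3.74 TPM) and Gng8, known from olfactory neurons (1.34 and 1.41 TPM). All 11 Gγ coding sequences had a cysteine codon as the first of the 4 in capitals above. The last codon was leucine in 8 genes and serine in 3, Gng11, Gngt1 and Gngt2. Genes with a serine end summed to 22.4 TPM in replicate 1 and 24.2 TPM in replicate 2, or 1.49% and 1.77% of the Gγ TPM.

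RGS genes of the R4 class, small proteins that act on Gi/o and Gq, held 45.6% of the RGS TPM in replicate 1 and 58.5% in replicate 2. Rgs4 (chr1:169741477-169747642), known from cortical neurons, had 108 TPM in replicate 1, against 324 TPM in replicate 2 (216 ± 153), and held 24.0% and 49.0% of the RGS TPM. Rgs2 (chr1:143999338-144004161), an activity-induced gene whose product prefers Gq, had 80.1 and 47.7 TPM in replicates 1 and 2. The order of the leading RGS genes within a library was therefore Rgs4, Rgs2, Rgs17 in replicate 1 and Rgs4, Rgs17, Rgs7 in replicate 2. Over protein-coding transcripts alone in replicate 1, Rgs2 had 39.9 TPM, below Rgs17 (61.1 TPM) and Rgs10 (59.6 TPM). Rgs3 (4.66 and 5.64 TPM), Rgs8 (6.15 and 2.22 TPM) and Rgs13 (2.01 and 0.900 TPM) were low in replicates 1 and 2. Rgs5, a marker of pericytes, had 4.07 and 5.83 TPM in replicates 1 and 2, beside a mural cell list that summed to 29.0 and 31.0 TPM with 2 of 7 markers detected in both libraries. The near-equal sums hide members in opposite directions, with Vtn (86 and 704 reads in replicates 1 and 2), Kcnj8 (7 and 128) and Pdgfrb (3 and 126) higher in replicate 2 and Acta2 (391 and 8), Myl9 (173 and 23) and Tagln (131 and 5) higher in replicate 1. The part of such cells in the Rgs5 level was not tested. Rgs16 was at 0.740 and 0.860 TPM, and Rgs1, known from lymphocytes, had 1 and 0 reads in replicates 1 and 2.

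The RZ class, which acts on Gz and Gi/o, held 24.5% and 21.2% of the RGS TPM in replicates 1 and 2. Rgs17 was at 61.1 and 64.4 TPM, Rgs20 at 27.2 and 29.6 TPM, and Rgs19 at 22.3 and 46.2 TPM. Of the R7 class, whose members bind Gβ5 and which held 13.8% and 14.3%, Rgs7 was at 26.9 and 59.4 TPM, Rgs11 at 21.8 and 26.5 TPM and Rgs6 at 9.65 and 8.03 TPM in replicates 1 and 2. Rgs9, the R7 member of photoreceptors and striatum, had 3.92 TPM (183 reads) in replicate 1 and 0.490 TPM (25 reads) in replicate 2. The R12 genes were Rgs10, known to be abundant in microglia, with 59.6 and 26.7 TPM in replicates 1 and 2, and Rgs14, known from hippocampal area CA2, with 13.0 and 12.9 TPM. Rgs22, known from testis, had 0 and 11 reads.

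Several members lie side by side in the genome, with no other protein-coding gene between them and a gap of at most 250 kb. There were 11 such pairs, holding 21 members, and their partners often stood at different levels. On chromosome 19, Gnaq (33.3 and 34.6 TPM in replicates 1 and 2) lies 48.3 kb from Gna14 (0 and 0.920 TPM). On chromosome 10, Gna11 (30.8 and 33.1 TPM) lies 4.5 kb from Gna15 (0 and 0.130 TPM). Gnai3 and Gnat2 on chromosome 3 are 5.8 kb apart, and Gng11 and Gngt1 on chromosome 6 are 6.5 kb apart, and in both pairs only the first-named gene had reads. On chromosome 1, Rgs4 lies 45.7 kb from Rgs5, the other strand being used, and had a higher level than Rgs5 in both libraries.

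The libraries were then compared member by member, as the log2 of (CPM + 1) in replicate 1 over (CPM + 1) in replicate 2. Of the 34 members at a mean CPM of at least 10, 5 differed by 2-fold or more (14.7%), against 4.46% of all 9190 genes at that depth. The 5 were 3 members higher in replicate 1, where the share over all genes was 2.6%, and 2 members higher in replicate 2, where it was 1.86%. By family, 0 of 11 Gα, 0 of 3 Gβ, 1 of 8 Gγ and 4 of 12 RGS genes passed 2-fold. The median size of the log2 ratio was 0.32 over the members and 0.26 over all genes. It was 0.20 for Gα, 0.25 for Gβ, 0.33 for Gγ and 0.54 for RGS genes. With 2 libraries there is no test of these ratios, and their intervals below are exact 95% intervals that cover counting error only.

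Rgs4 had 6154 reads in replicate 1 and 20594 in replicate 2, a log2 ratio of -1.58, and was 2.99-fold higher in replicate 2 (2.91 to 3.08). Rgs7 had 1215 reads in replicate 1 and 2936 in replicate 2, a log2 ratio of -1.10, and was 2.16-fold higher in replicate 2 (2.02 to 2.31). Both were thus high in replicate 2, but Rgs7 stayed under 2-fold when libraries were scaled by spike-in totals (log2 ratio -0.74). Of the 7 layer 5 markers, 3 were also 2-fold or more higher in replicate 2 (against 1.86% of all genes). These were Pcp4 (log2 ratio -1.07), Etv1 (-2.43) and Fezf2 (-1.13). Ratios of marker and list genes were not recomputed with spike-in totals, which shifted the median log2 ratio over all genes by 0.36. Pcp4 and Fezf2 lie within that shift of the 2-fold limit. Of the other 4, Rbp4 (log2 ratio -0.50) and Ldb2 (-0.48) were also higher in replicate 2, and Crym (0.31) and Bcl11b (0.27) were higher in replicate 1, all by less than 2-fold. The part of layer 5 neuron make-up in the Rgs4 and Rgs7 ratios was not tested.

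In the other direction, Rgs8 had 661 reads in replicate 1 and 285 in replicate 2, a log2 ratio of 1.30, or 2.59-fold (2.25 to 2.99). Rgs10 had 816 reads in replicate 1 and 401 in replicate 2, a log2 ratio of 1.14, or 2.27-fold (2.02 to 2.57). Gng10 had 3031 reads in replicate 1 and 1615 in replicate 2, a log2 ratio of 1.06, or 2.10-fold (1.97 to 2.23). The interval of Gng10 reaches below 2-fold. Its exons are overlapped over 72.0% of their bases by the readthrough gene Gm20503 on the same strand (126 and 81 reads in replicates 1 and 2).

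The interneuron and microglial lists were higher in replicate 1 like these 3 members, while the oligodendrocyte, astrocyte and erythroid sums were higher in replicate 2. Astrocyte markers were mixed, however, and none passed 2-fold. Aldoc, S100b, Slc1a2, Aldh1l1 and Gfap were higher in replicate 2. Aqp4 (log2 ratio 0.76), Gja1 (0.60) and Slc1a3 (0.225) were higher in replicate 1. Of the 9 interneuron markers at a mean CPM of at least 10, 4 were 2-fold or more higher in replicate 1 and none was in replicate 2. Levels of Sst were 2506 and 844 TPM in replicates 1 and 2. Of the 5 microglial markers at that depth, 4 were 2-fold or more higher in replicate 1, with C1qb at 39.4 and 13.9 TPM in replicates 1 and 2. The other, Csf1r, was higher in replicate 1 by less than 2-fold (log2 ratio 0.48). Over all genes at that depth, 2.6% were 2-fold or more higher in replicate 1. No microglial or interneuron marker stood at 0 reads in either library, the lowest being Vip with 4365 reads in replicate 1 and 1 in replicate 2. Their part in the Rgs8, Rgs10 and Gng10 ratios was not tested.

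Just inside the 2-fold limit were Gnal, with a log2 ratio of 0.85, Rgs19 with -0.83 and Gna12 with -0.78. Gng10 at 1.06 and Rgs7 at -1.10 were just outside it. Below the minimum of mean CPM 10, Rgs9 had a log2 ratio of 2.17 from 183 reads in replicate 1 and 25 in replicate 2, a ratio of 8.18 with an interval of 5.37 to 13.0. At the other end, Rgs14 (0.00), Gnai3 (0.01), Rgs17 (-0.05) and Gnas (0.09) differed little between the libraries.

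**Figure D3:**
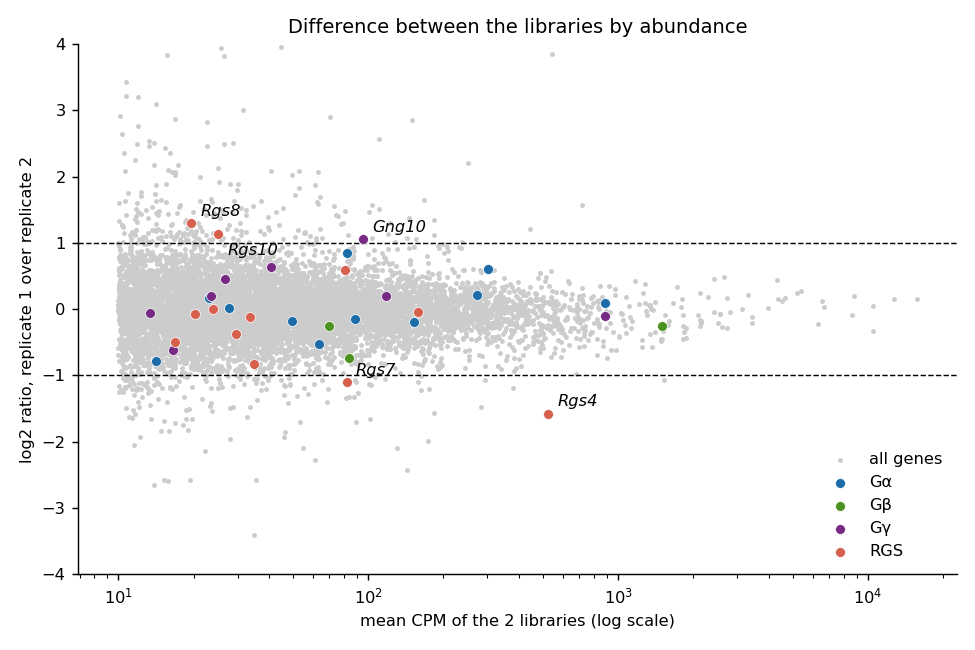
Log2 ratio of replicate 1 over replicate 2 against the mean CPM (log scale) for all genes at a mean CPM of at least 10 (grey) and for the members by family, with dashed lines at 2-fold; 12 genes lie outside the plotted range. Rgs8, Rgs10 and Gng10 lie above the upper line and Rgs4 and Rgs7 below the lower one, with Rgs4 the most abundant of the 5.

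Transcript shares were taken from replicate 1, in which each transcript is given as a percent of its gene's TPM. Of the 27 members at a TPM of at least 10, 3 (11.1%) had a leading transcript not annotated as protein-coding, against 12.5% of 6516 protein-coding genes at that level. The median share of the leading transcript was 77.9% over the members and 83.2% over those genes, and 5 members had a single transcript in the table.

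For Gnas, Gnas-208, which holds the 45-base exon shown above and encodes 394 codons, took 59.1% of the TPM (12943 reads, posterior SD 285). Gnas-206, which lacks it and encodes 379 codons, took 35.7% (7713 reads, posterior SD 281). These correspond to the long and short forms of Gαs. Both were thus used in this pool, the one with the exon more.

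For Gnao1, Gnao1-201 took 77.2% and Gnao1-203 took 15.7%, and in M21 both carry the downstream pair of final coding exons (chr8:93963384-93963537 and chr8:93966868-93967052). Gnao1-207, with the upstream pair (chr8:93953975-93954128 and chr8:93956065-93956249), took 0.380%, from 25.9 estimated reads. The model of Gnao1-207 quantified in the table was 2333 bases long, against 5526 bases for the M21 model whose exons are given here. The paired exons are of equal length, 154 and 185 bases, and 74.0% of their 339 bases are identical. For Gnal, Gnal-202 took 77.1% and Gnal-201 22.9%. Rgs9-201 held 100% of the Rgs9 TPM.

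Retained-intron transcripts held 95.4% of the Gnb2 TPM and 97.1% of the Rgs11 TPM in replicate 1. The leading transcripts were Gnb2-213 with 73.1% and Rgs11-211 with 65.7%. Protein-coding transcripts were left with 5.52 TPM for Gnb2 and 0.620 TPM for Rgs11, of gene levels of 121 and 21.8 TPM. The gene Arhgdig, with 5996 and 7144 reads in replicates 1 and 2, overlaps 3.28% of the exon bases of Rgs11 on the opposite strand, and its part in these reads was not tested.

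Among members at a TPM of at least 10, the 5 with the lowest leading share were Rgs2, Gng10, Gng12, Gnas and Rgs7. Rgs2-201, annotated as a target of nonsense-mediated decay, took 50.2% of the Rgs2 TPM, and the coding Rgs2-202 took 34.8%. By reads the order turned, with 71.4% on Rgs2-202, which is the longer model. Gng10-201, whose coding end is shown above, took 57.1% and a processed transcript the other 42.9%. Gng12-207 took 57.2% of the TPM but 23.2% of the reads, against 65.0% of the reads on the longer Gng12-201. Rgs7-206 took 59.3%.

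**Figure D4:**
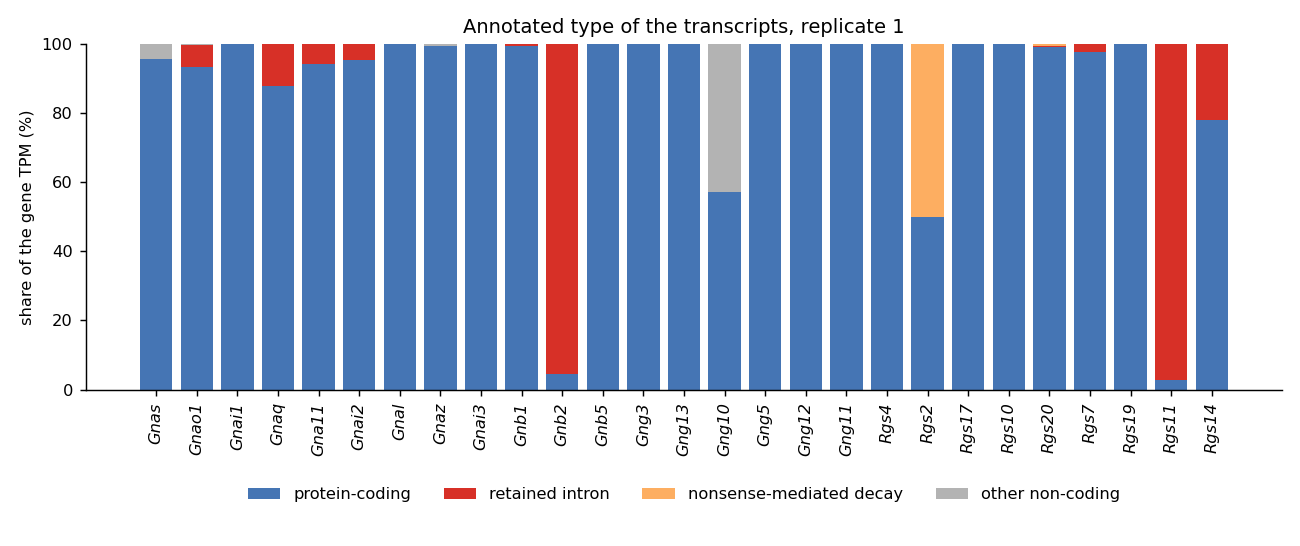
Share of each gene's TPM, in percent, by annotated transcript type in replicate 1, for the 27 members at a TPM of at least 10. Gnb2 and Rgs11 are almost wholly retained intron, Rgs2 is divided between coding and nonsense-mediated decay transcripts, and Gng10 between a coding and another non-coding transcript.

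The genes that act with the members were examined in 11 lists of 91 genes, of which 62 were detected in both libraries at a TPM of at least 1. Over all protein-coding genes 52.2% were detected in this way. The counts of the lists, here and below, were not tested against that share. Of the effectors, 6 of 9 adenylyl cyclases, the enzymes that Gαs activates, were detected in both. Adcy2 (35.0 and 36.1 TPM), Adcy1 (25.3 and 27.0 TPM) and Adcy9 (6.21 and 6.92 TPM) were the highest in replicates 1 and 2. Of the phospholipase C beta genes, the effectors of Gq, 2 of 4 were detected in both, Plcb1 at 74.9 and 69.6 TPM in replicates 1 and 2 and Plcb4 at 41.8 and 35.4 TPM, and Plcb2 followed at 0.720 and 1.06 TPM. Of the GIRK channel genes, opened by Gβγ, 3 of 4 were detected in both, Kcnj3 (35.8 and 33.2 TPM in replicates 1 and 2), Kcnj9 (18.9 and 21.1 TPM) and Kcnj6 (15.9 and 8.68 TPM), and Kcnj5 had 0 reads in both. At a mean CPM of at least 10, 0 of 6 adenylyl cyclase, 0 of 2 phospholipase C beta and 0 of 3 GIRK channel genes passed 2-fold in either direction. Over all 9190 genes at that depth 4.46% passed, and lists this short cannot be told from that share.

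Of the proteins that work on the subunits, the R7 anchors Rgs7bp (81.0 and 94.1 TPM in replicates 1 and 2) and Gpr158 (11.6 and 23.7 TPM) were detected in both libraries, and Rgs9bp had 0 and 2 reads in replicates 1 and 2. Gpr158, an orphan receptor that binds Rgs7, was higher in replicate 2 with a log2 ratio of -1.03. Among Gα chaperones and GoLoco proteins, 5 of 6 were detected in both. Ric8a was at 27.2 and 20.7 TPM in replicates 1 and 2, Ric8b, which serves Gαs and Golf, at 9.49 and 15.2 TPM, and Gpsm2 at 2.61 and 6.44 TPM with a log2 ratio of -1.20. Of the Gβγ chaperones 2 of 3 were detected in both, Pdcl3 at 47.4 and 34.8 TPM in replicates 1 and 2 and Pdcl at 17.2 and 10.2 TPM, while Pdc had 3 and 0 reads. All 3 RhoGEFs with an RGS homology domain were detected, Arhgef12 at 8.22 and 9.30 TPM in replicates 1 and 2, Arhgef1 at 2.12 and 4.34 TPM and Arhgef11 at 3.40 and 2.85 TPM. Of the receptor kinases and arrestins 8 of 10 were detected in both, led by Grk2 (8.26 and 10.5 TPM in replicates 1 and 2), Grk6 (8.92 and 8.48 TPM) and Grk3 (11.1 and 6.26 TPM).

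Among receptors, 3 of 9 coupled to Gs, 20 of 30 coupled to Gi/o and 8 of 10 coupled to Gq were detected in both libraries, against 52.2% of all protein-coding genes. The summed level of the Gs-coupled list was 15.6 TPM in replicate 1 and 14.9 TPM in replicate 2, that of the Gi/o-coupled list 372 and 349 TPM, and that of the Gq-coupled list 114 and 89.6 TPM. The order of these sums was also the order of the lists' lengths, and it differed from that of the Gα classes, among which Gs held the most TPM. The leading Gs-coupled receptors were Adrb1 (4.89 and 6.22 TPM in replicates 1 and 2), Drd5 (2.43 and 3.49 TPM) and Drd1 (3.90 and 0.890 TPM). The leading Gi/o-coupled receptors were the GABA-B subunits Gabbr1 (68.8 and 76.2 TPM in replicates 1 and 2) and Gabbr2 (44.4 and 37.7 TPM) and the somatostatin receptor Sstr2 (58.8 and 40.6 TPM). The leading Gq-coupled receptors were Grm5 (53.1 and 34.3 TPM in replicates 1 and 2), Chrm1 (12.4 and 17.4 TPM) and Htr2c (12.2 and 12.9 TPM).

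A few receptors differed by 2-fold or more. The kappa opioid receptor gene Oprk1 had 3206 reads in replicate 1 and 0 in replicate 2, at least 1195-fold higher in replicate 1 if replicate 2 is set to its limit of 3 reads. Chrm2 (640 and 303 reads in replicates 1 and 2, log2 ratio 1.17) and Adra1a (433 and 203 reads, 1.15) were higher in replicate 1. Grm2 (88 and 729 reads in replicates 1 and 2) was higher in replicate 2, with a log2 ratio of -2.60. Of the genes at a mean CPM of at least 10, 2 of 16 Gi/o-coupled receptors were at least 2-fold higher in replicate 1 and 1 of 16 in replicate 2. Of the Gs-coupled receptors at that depth, 0 of 1 passed 2-fold. Over all 9190 genes at that depth, 2.6% were at least 2-fold higher in replicate 1 and 1.86% in replicate 2. The receptor counts were not tested against these shares.

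**Figure D5:**
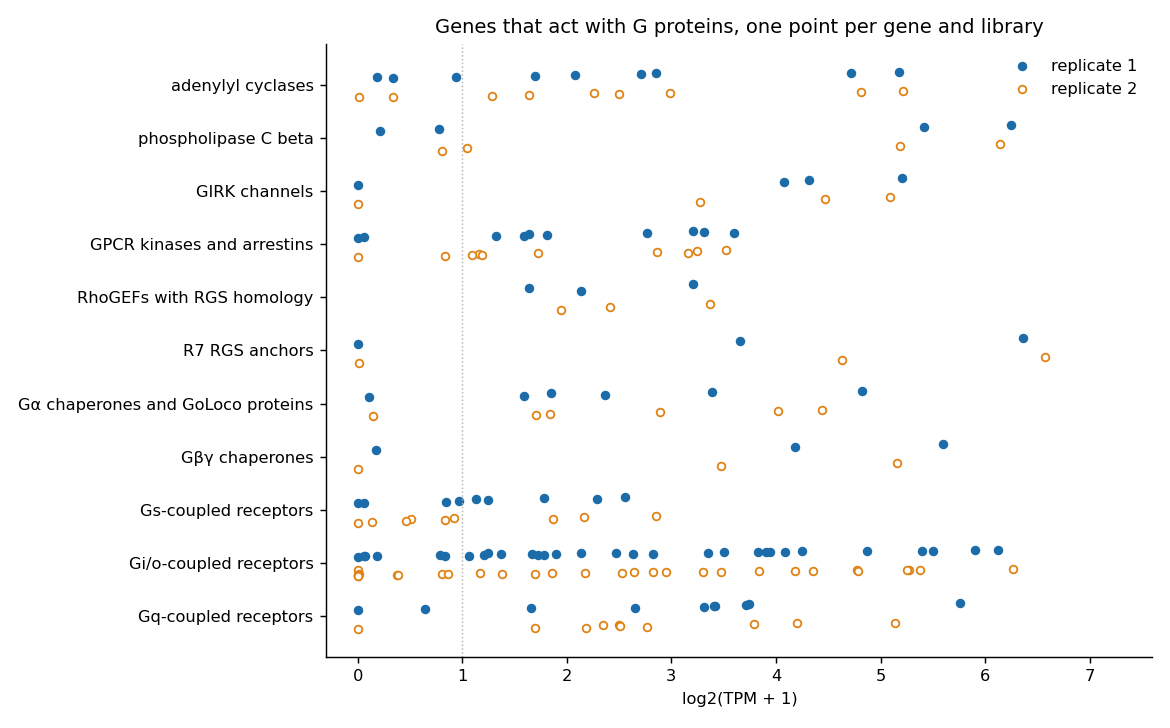
Level of each gene of the 11 lists as log2(TPM + 1), with replicate 1 (filled) above replicate 2 (open) in each row and a dotted line at a TPM of 1. The highest points belong to Rgs7bp, Plcb1 and the GABA-B receptor subunit Gabbr1.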

How the data were processed

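The gene table deposited for each library holds an expected count per gene (reads as estimated, before any normalization), TPM, FPKM and, per the file headers, the posterior standard deviation of each count, used here only as a score of how uniquely reads were assigned. TPM in the deposited tables is scaled over all features, spike-ins included. The deposited transcript table of replicate 1 gives each transcript as a percent of its gene's TPM. Per the deposited text files, quantification used mm10 and GENCODE M4. The aligner, the quantifier and its strand setting were not given in the sources used here.

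Symbols, types, exons and sequences came from GENCODE M21 on GRCm38 by identifier without version (42462 of 43346 matched). Left out of comparisons were 96 spike-ins, 1 phiX174 entry and 26248 entries with numeric identifiers. The numeric entries held at most 0.0001% of reads. Expected counts were rounded, scaled with edgeR 4.0.16 (TMM; R 4.3.3), and compared as log2 ratios with a pseudocount of 1 CPM. Ratio intervals are exact conditional binomial intervals. Python 3.11.15 (scipy 1.17.1, numpy 2.4.6, pandas 2.3.3) gave the other values.

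The members and lists were chosen with earlier results of these data known. Named were all members, the 3 highest genes of each list with those at mean CPM of at least 10 and beyond 2-fold, and, for transcripts, Gnas, Gnao1, Rgs9 and the 5 members with the lowest leading share. Gnal, Gnb2 and Rgs11 transcripts, the neighbouring pairs and some markers were chosen after their values were seen. Some genes of these families and lists are not reported here.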

Additional observations from a re-analysis of the deposited data

How the results depend on the processing

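Detection of members in both libraries stayed within 1.5 times of 38 at every other minimum tried, and that of list genes was 33 in place of 62 at a TPM minimum of 5. Without replicate 1 or without replicate 2, 38 and 40 members and 65 and 68 list genes were detected in the library left. Family medians (13.0, 111, 20.0 and 7.42 TPM for Gα, Gβ, Gγ and RGS) became 10.6, 16.3 and 6.04 FPKM for Gα, Gγ and RGS. With TPM rescaled to genes alone they were 22.0 for Gγ and 8.15 for RGS. Over members at a mean TPM of at least 1 they were 26.8 for Gα, 25.7 for Gγ and 24.1 for RGS. Protein-coding transcripts alone, an alternative added after seeing the data, gave 36.4 for Gβ and 5.11 for RGS, and 88.9% for the share of Gnb1. By expected counts, not per length, Gnas held 45.3%, Gnb1 90.8% and Gng3 72.5% of their families, against 62.9%, 74.3% and 45.4% by TPM. The count of members beyond 2-fold was 5 of 34 (14.7%) under DESeq2 size factors, a pseudocount of 0.1 CPM and spike-in totals. The shares over all genes were 4.45%, 4.95% and 7.22% in those settings. At a mean CPM of at least 1 the count was 7 of 40 members (17.5%), against 10.4% of all genes. With no minimum it was 7 of 51 (13.7%), against 4.2%. Rgs9 and Gna14 were added in both of these settings. With TPM in place of CPM, also added later, the count was 6 of 34 (17.6%), against 4.02%, and Rgs19 was added. Scaling by spike-in totals shifted the median log2 ratio over all genes by 0.36, so that Gnal (1.21) passed 2-fold, Rgs7 (-0.74) did not, and 1 member was higher in replicate 2. Among all genes 666 of 9219 then passed (607 higher in replicate 1 and 59 in replicate 2), against 410 of 9190 (239 and 171). At a mean CPM of at least 1, 1484 of 14331 genes passed, and with no minimum 1822 of 43346. No ratio can be had without one of the libraries. No paired analysis was possible because the series has 1 group. Depth limits the members under 100 reads, such as Gnat1, Gngt2, Gng8, Rgs13 and Rgs16.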
